A study of Mus musculus with 10 samples.

Results

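The cell division and DNA replication genes were followed in the hearts of 10 mice that all carried 1 copy of the Rit1 M90I variant (Rit1 M90I/+), a germline allele that models RIT1-associated Noonan syndrome. The vehicle control group held 5 hearts. The MEKi group held 5 hearts of mice dosed daily with trametinib, an allosteric inhibitor of MEK1 and MEK2, at 1 mg/kg. Dosing began at 4 weeks of age and lasted 20 weeks. The allele came from a conditional line crossed to a cytomegalovirus-Cre deleter, so both groups carried it throughout the body, and no heart without the allele was profiled here. Mice were killed 2 hours after they had been dosed for the last time. The members were 46 genes chosen by name, out of 54532 rows of the deposited table. They were 15 genes of DNA replication and 31 genes of mitosis and cytokinesis, and the rule that selects them names genes and uses no value. The members were, however, chosen with earlier results of these data known. All 46 were present in the table once.

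A cell that divides first loads the MCM helicase onto its origins and copies its DNA, under the control of E2F transcription factors and cyclin E. It then condenses its chromosomes, builds a spindle under the control of cyclin B, CDK1 and the polo and aurora kinases, and separates by cytokinesis. Transcripts for replication peak around S phase and those for mitosis around G2 and M phase, so their level in a tissue is used as a readout of the cells in cycle. Most cardiomyocytes of the adult mouse heart no longer divide, and endothelial cells, fibroblasts and blood cells are the usual sources of cycling cells in the tissue. MAPK signaling is known as a driver of the entry into S phase.

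Promoters of these genes were read from RefSeq (GRCm38.p6) to show what the 2 classes share apart from their names. A window of 300 bases, from 250 bases before to 50 bases after the start of transcription, was found for 38 of the 46 members, in 41 windows. Ccne2, Mcm4, Aurkb, Kif20a, Foxm1, Ccna2, Smc4 and Tpx2 had no entry. Letters of 3 kinds were searched on both strands: TTTGAA or TTTAAA, the cell cycle genes homology region read by MuvB complexes; CCAAT, the site of NF-Y; and GGCGGGAA or TTTGGCGC, 2 forms of the E2F site. The homology region stood in 22 of 25 mitosis genes and 5 of 13 replication genes, against 27.6% of all 32851 windows. CCAAT stood in 21 of 25 mitosis genes and 8 of 13 replication genes, against 37.4% of all windows. Both together stood in 20 of 25 mitosis genes and 3 of 13 replication genes, against 10.7% of all windows. An E2F form stood in none of the 25 mitosis genes and in 4 of 13 replication genes, Mcm3, Mcm5, Mcm6 and Rrm1, against 2.68% of all windows. A match describes letters and not a bound site.

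The 200 bases that end 50 bases after the start are printed below for the members that the results turn on and that hold a match, and for Mcm3 and Mcm6, which carry the E2F forms. Capitals mark the searched letters or their reverse complement, and no 2 capital stretches overlap. The windows are Top2a (chr11:99024140-99024339, minus strand), Mki67 (chr7:135716330-135716529, minus strand), Cdk1 (chr10:69352863-69353062, minus strand), Cenpf (chr1:189688037-189688236, minus strand), Mcm2 (chr6:88898731-88898930, minus strand), Mcm3 (chr1:20820263-20820462, minus strand) and Mcm6 (chr1:128359656-128359855, minus strand).
Top2a: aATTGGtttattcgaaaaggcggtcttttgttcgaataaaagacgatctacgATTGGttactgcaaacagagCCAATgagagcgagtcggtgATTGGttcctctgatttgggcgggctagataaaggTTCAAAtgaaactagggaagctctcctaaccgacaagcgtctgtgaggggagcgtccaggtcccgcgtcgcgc
Mki67: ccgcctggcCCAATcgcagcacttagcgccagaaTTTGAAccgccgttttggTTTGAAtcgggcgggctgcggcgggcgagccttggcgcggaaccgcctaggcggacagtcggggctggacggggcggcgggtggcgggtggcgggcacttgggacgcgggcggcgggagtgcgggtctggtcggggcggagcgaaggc
Cdk1: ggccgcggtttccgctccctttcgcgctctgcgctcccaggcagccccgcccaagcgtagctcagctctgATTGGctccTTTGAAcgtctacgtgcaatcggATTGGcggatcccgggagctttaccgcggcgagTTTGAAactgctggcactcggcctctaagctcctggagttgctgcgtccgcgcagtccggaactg
Cenpf: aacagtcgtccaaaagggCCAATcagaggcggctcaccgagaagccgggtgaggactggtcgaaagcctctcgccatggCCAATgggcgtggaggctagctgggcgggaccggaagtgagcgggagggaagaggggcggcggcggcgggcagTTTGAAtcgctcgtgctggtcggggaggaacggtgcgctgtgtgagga
Mcm2: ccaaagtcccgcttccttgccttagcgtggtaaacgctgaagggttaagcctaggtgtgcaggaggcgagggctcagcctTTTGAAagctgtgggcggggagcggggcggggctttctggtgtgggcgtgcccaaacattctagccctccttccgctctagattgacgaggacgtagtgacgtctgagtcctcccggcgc
Mcm3: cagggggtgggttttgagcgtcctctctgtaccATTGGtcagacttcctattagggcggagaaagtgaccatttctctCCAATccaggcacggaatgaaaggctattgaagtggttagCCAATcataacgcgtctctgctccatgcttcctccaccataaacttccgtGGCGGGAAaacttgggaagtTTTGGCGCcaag
Mcm6: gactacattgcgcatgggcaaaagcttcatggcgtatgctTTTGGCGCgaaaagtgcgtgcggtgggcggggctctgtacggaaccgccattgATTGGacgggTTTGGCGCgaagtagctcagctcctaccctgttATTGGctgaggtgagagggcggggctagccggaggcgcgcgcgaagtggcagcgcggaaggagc
Top2a held TTTGAA on the reverse strand from 23 bases before its start, Cdk1 from 71 and 15 bases before, and Mki67 from 116 and 98 bases before. Mcm2 was the only replication member with TTTGAA among the 13 with a window, from 70 bases before its start. The windows of E2f1 and Nusap1 held none of the searched letters. The last 200 bases of the E2f1 window are chr2:154569377-154569576 on the minus strand. The gene as deposited begins at 154569892, so the window lay inside it and the sequence at that end was not searched.

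The libraries held 13647167 to 18474002 fragments per heart, recovered from the deposited FPKM (fragments per kilobase of gene length and for a common library size). Mitochondrial genes took 24.7% to 35.0% of them in vehicle and 24.0% to 28.7% in MEKi hearts. Xist had at most 2 fragments in any vehicle heart and 1456 to 2199 in the MEKi hearts, and the Y-linked Ddx3y had 814 to 901 in the vehicle hearts and 0 in all MEKi hearts. The study used littermates of both sexes and the labels give none for these hearts. Treatment and the split in X- and Y-linked transcripts therefore coincide, and their effects cannot be told apart in any comparison below. Summed FPKM of 5 cardiomyocyte markers was 9834 to 12300 in vehicle and 9224 to 12926 in MEKi hearts, the level of a cardiac tissue. In vehicle hearts 4 and 5 the sum of 4 erythroid markers was 21070 and 23825, against 2692 to 6909 in the other 8 hearts, and atrial markers were high in both of these and in MEKi heart 2.

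Cell division genes were low in these hearts. Only 10 members reached a mean of 1 FPKM, and 27 had under 50 fragments in every heart. The most abundant was Pcna, the sliding clamp of DNA polymerases, at a mean of 12.2 FPKM over all hearts, followed by Hmgb2, a chromatin protein, at 3.46, while the median member stood at 0.338 and the median gene of all tested at 2.94. Of the 46 members, 41 had a mean of at least 10 fragments a heart and entered the test, all 15 of replication and 26 of mitosis. The other 5 were Ccnb1, Aurkb, Bub1, Cdca8 and Ect2, with 0 to 17 fragments in any heart. Bub1 in vehicle heart 1 and Cdca8 in MEKi heart 2 were at 0, which allows up to 3 fragments by counting error alone.

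No member changed past the threshold of an adjusted p under 0.05 (limma on log2(FPKM + 0.1), Benjamini-Hochberg over 13943 genes), where 0.0717% of all genes passed. The lowest adjusted p of a member was 0.333, for E2f1. At an unadjusted p under 0.05 there were 7 of 41 members, or 17.1%, by limma and likewise 7 by voom on the recovered fragments, where limma found 7.7% of all genes. Lower with MEKi were 6 of them, E2f1, Top2a, Mcm2, Nusap1, Mki67 and Cdk1, against 4.08% of all genes. Higher was 1, Cenpf, against 3.61%. The count depended on the filter and the scale. With a mean of at least 0.5 FPKM, limma gave 2 of 17 members, 1 lower and 1 higher, against 7.62% of all genes. Without a filter it gave 5 of 46, 4 lower and 1 higher, against 5.78%. On a TPM scale it gave 6 of 41, 4 lower and 2 higher, against 7.94%. The fitted difference was below 0 for 29 of 41 members, or 70.7%, against 48.5% of all genes. The median log2 fold change of the members was -0.15, against 0.01 for all genes. Members are not independent replicates of the treatment, so these counts describe the list and test nothing. In bulk tissue, fewer cycling cells and less RNA per cycling cell cannot be told apart.

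The 95% intervals of 34 of the 41 members included 0, and many were wide. That of Ube2c ran from -1.72 to 0.27, so a large decrease and no change were not told apart. That of Pcna, the most abundant member, ran from -0.02 to 0.41.

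**Figure D1:**
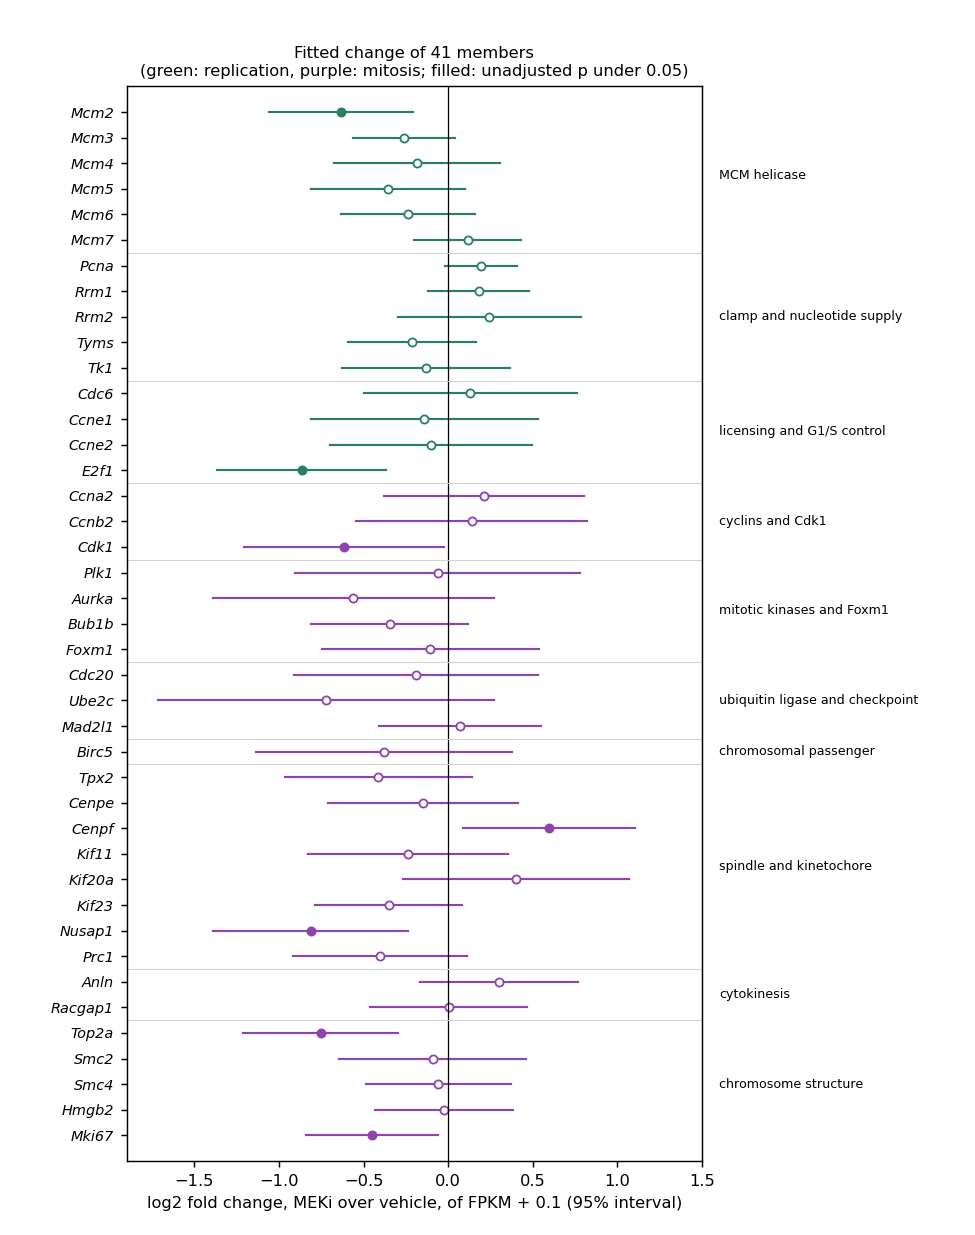
Log2 fold change of FPKM + 0.1, MEKi over vehicle (horizontal axis), with its 95% interval for the 41 members tested, grouped by role; filled points have an unadjusted limma p under 0.05. Points lie left of 0 for 29 members, the intervals of Ube2c, Plk1 and Aurka are wide, and none of the members passed an adjusted p of 0.05.

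E2f1, the transcription factor that opens the G1/S programme, had the smallest p of the list and ranked 106 among all genes. It is on chromosome 2 (154559407 to 154569892, GRCm38, minus strand). Vehicle hearts 1 to 5 had 0.471, 0.418, 0.669, 0.592 and 0.436 FPKM. MEKi hearts 1 to 5 had 0.407, 0.314, 0.194, 0.160 and 0.161 FPKM. Every MEKi heart lay below every vehicle heart, although MEKi heart 1 was close to the lowest vehicle heart. The means were 0.517 ± 0.109 and 0.247 ± 0.109 FPKM (SD, n = 5 each), from 8 to 30 fragments a heart. The log2 fold change was -0.87 (95% interval -1.36 to -0.37, limma adjusted p = 0.333), and the exact permutation test gave 0.00794, the smallest p that 252 assignments of the hearts allow. The MEKi hearts lay wholly below the vehicle hearts for 2 members, E2f1 and Top2a, against 0.868% of all genes, and wholly above them for 0 members, against 0.753%.

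Top2a, topoisomerase II alpha, which untangles chromosomes before they separate, had 0.422, 0.346, 0.343, 0.239 and 0.374 FPKM in vehicle hearts 1 to 5. In MEKi hearts 1 to 5 it had 0.227, 0.181, 0.0755, 0.174 and 0.177 FPKM. The groups did not overlap, with vehicle heart 4 and MEKi heart 1 nearest each other, and MEKi heart 3 far below the rest. The means were 0.345 ± 0.0670 and 0.167 ± 0.0553 FPKM (SD, n = 5 each) from 10 to 64 fragments, and the log2 fold change was -0.75 (95% interval -1.21 to -0.29, limma adjusted p = 0.396). Top2a is on chromosome 11 (98992943 to 99024189, minus strand), and its promoter window carried both the homology region and CCAAT.

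Mki67, which encodes the Ki-67 protein that coats mitotic chromosomes and is the usual marker of cells in cycle, had 0.549, 0.483, 0.336, 0.457 and 0.410 FPKM in vehicle hearts 1 to 5. MEKi hearts 1 to 5 had 0.255, 0.272, 0.338, 0.245 and 0.392 FPKM. The groups overlapped, because MEKi hearts 3 and 5 were above vehicle heart 3. The means were 0.447 ± 0.0801 and 0.300 ± 0.0629 FPKM (SD, n = 5 each), with a log2 fold change of -0.45 (95% interval -0.84 to -0.06, limma adjusted p = 0.574), from 44 to 93 fragments. Of the other chromosome proteins, Smc2 and Smc4, subunits of condensin, differed by -0.09 and -0.06 and Hmgb2 by -0.03 on the log2 scale. Hmgb2 had means of 3.44 ± 0.447 and 3.47 ± 1.04 FPKM, and Smc4 2.77 ± 0.895 and 2.55 ± 0.246 FPKM (SD, n = 5 each). All 5 members of this role had a fitted difference below 0, 2 of them at an unadjusted p under 0.05.

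**Figure D2:**
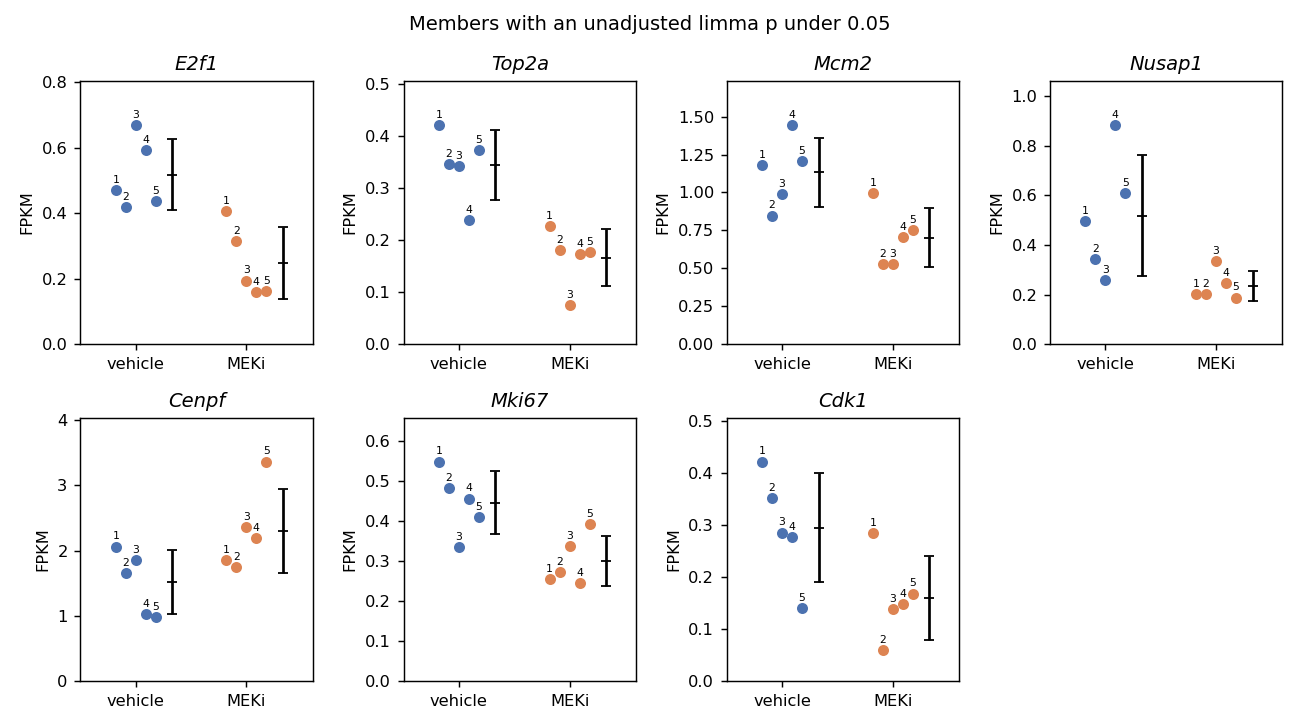
FPKM (vertical axes, from 0) of the 7 members with an unadjusted limma p under 0.05, with a point for each vehicle (blue) and MEKi (orange) heart labelled by its number and the mean with SD as a black bar. The groups of E2f1 and Top2a do not overlap, those of Mcm2, Nusap1, Cenpf, Mki67 and Cdk1 do.

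Of the 6 subunits of the MCM helicase, which unwinds DNA ahead of the fork, 5 had a fitted difference below 0 and the median was -0.25 on the log2 scale. Mcm2 had 1.18, 0.848, 0.991, 1.45 and 1.21 FPKM in vehicle hearts 1 to 5. It had 0.998, 0.528, 0.529, 0.707 and 0.750 FPKM in MEKi hearts 1 to 5. MEKi heart 1 lay among the vehicle hearts and the other MEKi hearts lay below all of them. The means were 1.13 ± 0.227 and 0.702 ± 0.194 FPKM (SD, n = 5 each), with a log2 fold change of -0.63 (95% interval -1.06 to -0.21, limma adjusted p = 0.471), from 54 to 140 fragments. Mcm3, Mcm4, Mcm5 and Mcm6 differed by -0.26, -0.19, -0.36 and -0.24 on the log2 scale, each with an interval that included 0. Mcm7 was the exception, with means of 2.30 ± 0.254 and 2.53 ± 0.482 FPKM and a log2 fold change of 0.11 (95% interval -0.20 to 0.43). Mcm7 overlaps Cops6 and Ap4m1 on the other strand, and whether the counting used strand is not given in the sources used here, so reads of the overlapped ends may be shared. Summed over the 6 subunits, vehicle hearts had 10.2 ± 1.73 and MEKi hearts 8.75 ± 1.01 FPKM (SD, n = 5 each). Vehicle heart 5, with 13.1 FPKM, was above the other 9 hearts, which ranged from 7.55 to 10.1 FPKM.

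In the clamp and the enzymes of nucleotide supply, 3 of 5 members had a fitted difference above 0 and 2 below. Pcna had 11.4, 10.8, 12.0, 12.0 and 10.5 FPKM in vehicle hearts 1 to 5. In MEKi hearts 1 to 5 it had 11.3, 13.3, 12.9, 12.0 and 15.6 FPKM. The groups overlapped, with MEKi heart 5 the highest, and the log2 fold change was 0.19 (limma adjusted p = 0.676). Rrm1 and Rrm2, the subunits of ribonucleotide reductase, differed by 0.18 and 0.24 on the log2 scale. Tyms, thymidylate synthase, and Tk1, thymidine kinase, differed by -0.21 and -0.13. Tk1 shares 169 bases with Afmid on the other strand. Tyms had means of 0.427 ± 0.0928 and 0.352 ± 0.0552 FPKM, and Rrm2 0.503 ± 0.208 and 0.596 ± 0.150 FPKM (SD, n = 5 each). None of these 5 had an unadjusted p under 0.05, and their median log2 fold change was 0.18. Among the other G1/S genes, Cdc6, which loads the helicase, differed by 0.13, and Ccne1 and Ccne2, the E cyclins, by -0.14 and -0.10 on the log2 scale. Ccne2 had means of 0.580 ± 0.330 and 0.484 ± 0.0537 FPKM (SD, n = 5 each), and 5622 bases of the gene overlap Ints8 on the other strand.

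In the cyclins and Cdk1, Cdk1, the kinase that drives entry into mitosis, had 0.422, 0.351, 0.285, 0.277 and 0.139 FPKM in vehicle hearts 1 to 5. MEKi hearts 1 to 5 had 0.284, 0.0591, 0.138, 0.147 and 0.168 FPKM. The groups overlapped, because vehicle heart 5 was below MEKi hearts 1, 4 and 5 and vehicle heart 4 was below MEKi heart 1. The means were 0.295 ± 0.105 and 0.159 ± 0.0810 FPKM (SD, n = 5 each), with a log2 fold change of -0.62 (95% interval -1.21 to -0.03, limma adjusted p = 0.629), from 5 to 35 fragments. Among the cyclins, Ccna2 had means of 0.239 ± 0.0293 and 0.321 ± 0.181 FPKM, and Ccnb2 0.554 ± 0.307 and 0.553 ± 0.0860 FPKM (SD, n = 5 each). A processed copy, Ccnb2-ps, carried 6 to 25 fragments a heart against 4 to 22 for Ccnb2 itself, so the level of Ccnb2 is uncertain. Ccna2 overlaps Exosc9 on the other strand by 863 bases.

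The mitotic kinases and Foxm1, a transcription factor of the G2/M genes, had fitted differences below 0 in all 4 members tested, with none at an unadjusted p under 0.05. Aurka, the centrosomal aurora kinase, had means of 0.425 ± 0.204 and 0.259 ± 0.141 FPKM (SD, n = 5 each) and a log2 fold change of -0.56 (95% interval -1.39 to 0.27). Bub1b, a checkpoint kinase homologue, had means of 0.387 ± 0.118 and 0.274 ± 0.0425 FPKM (SD, n = 5 each) and a log2 fold change of -0.35. For Plk1, the polo kinase, 1 library decided the means: vehicle heart 5 had 1.16 FPKM, the other vehicle hearts 0.158 to 0.270 and the MEKi hearts 0.203 to 0.356 FPKM. The log2 fold change of Plk1 was -0.06 with all hearts and 0.36 without vehicle heart 5. Of the ubiquitin ligase and checkpoint genes, Mad2l1 had means of 0.307 ± 0.0428 and 0.341 ± 0.133 FPKM. Cdc20, the activator of the anaphase-promoting complex, differed by -0.19 on the log2 scale. It shares 53 bases with Elovl1 on the other strand. Birc5, survivin, the tested member of the chromosomal passenger complex, had means of 0.281 ± 0.150 and 0.176 ± 0.0775 FPKM (SD, n = 5 each) and a log2 fold change of -0.38 (95% interval -1.13 to 0.37).

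Of 8 spindle and kinetochore genes, 6 had a fitted difference below 0, and the role held the lowest and the highest member of the mitosis class. Nusap1, which bundles spindle microtubules, had 0.498, 0.342, 0.260, 0.885 and 0.609 FPKM in vehicle hearts 1 to 5. It had 0.201, 0.201, 0.335, 0.248 and 0.188 FPKM in MEKi hearts 1 to 5. MEKi heart 3 lay above vehicle heart 3, and vehicle hearts 4 and 5 were the highest of all. The means were 0.519 ± 0.245 and 0.235 ± 0.0607 FPKM (SD, n = 5 each), with a log2 fold change of -0.81 (95% interval -1.39 to -0.24, limma adjusted p = 0.491), from 12 to 50 fragments. Tpx2, Kif11, Kif23, Cenpe and Prc1 differed by -0.41, -0.24, -0.35, -0.15 and -0.40 on the log2 scale, each with an interval that included 0. Prc1, with a mean of 15.7 fragments a heart, shares 21810 bases with Rccd1 on the other strand, which had 50.2.

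Cenpf, a large kinetochore and nuclear matrix protein, went the other way. Vehicle hearts 1 to 5 had 2.06, 1.65, 1.85, 1.03 and 0.979 FPKM. MEKi hearts 1 to 5 had 1.85, 1.75, 2.36, 2.20 and 3.37 FPKM. The groups overlapped, since vehicle heart 1 was above MEKi hearts 1 and 2, and vehicle hearts 4 and 5 were the lowest of all. The means were 1.51 ± 0.488 and 2.30 ± 0.644 FPKM (SD, n = 5 each), with a log2 fold change of 0.59 (95% interval 0.09 to 1.10, limma adjusted p = 0.569), from 220 to 816 fragments. It was the mitosis member with the most fragments. Kif20a, a kinesin of cytokinesis, differed by 0.40, but it shares 2315 bases with Cdc23 on the other strand. Of the cytokinesis genes tested, Anln, anillin of the contractile ring, had means of 0.121 ± 0.0397 and 0.171 ± 0.0461 FPKM, and Racgap1, of the centralspindlin complex, 0.231 ± 0.0536 and 0.235 ± 0.0800 FPKM (SD, n = 5 each). Their log2 fold changes were 0.30 and 0.00.

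Heart by heart, the members did not move as a block. Of the 41 tested members, 29 peaked in a vehicle heart and 12 in a MEKi heart, while 16 were lowest in a vehicle heart and 25 in a MEKi heart. Vehicle hearts 1 and 5 were the highest for 9 members each and vehicle heart 4 for 6. MEKi heart 2 was the lowest for 9 members and the highest for 0. The same shares over all genes were not counted, so these counts describe the list alone.

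**Figure D3:**
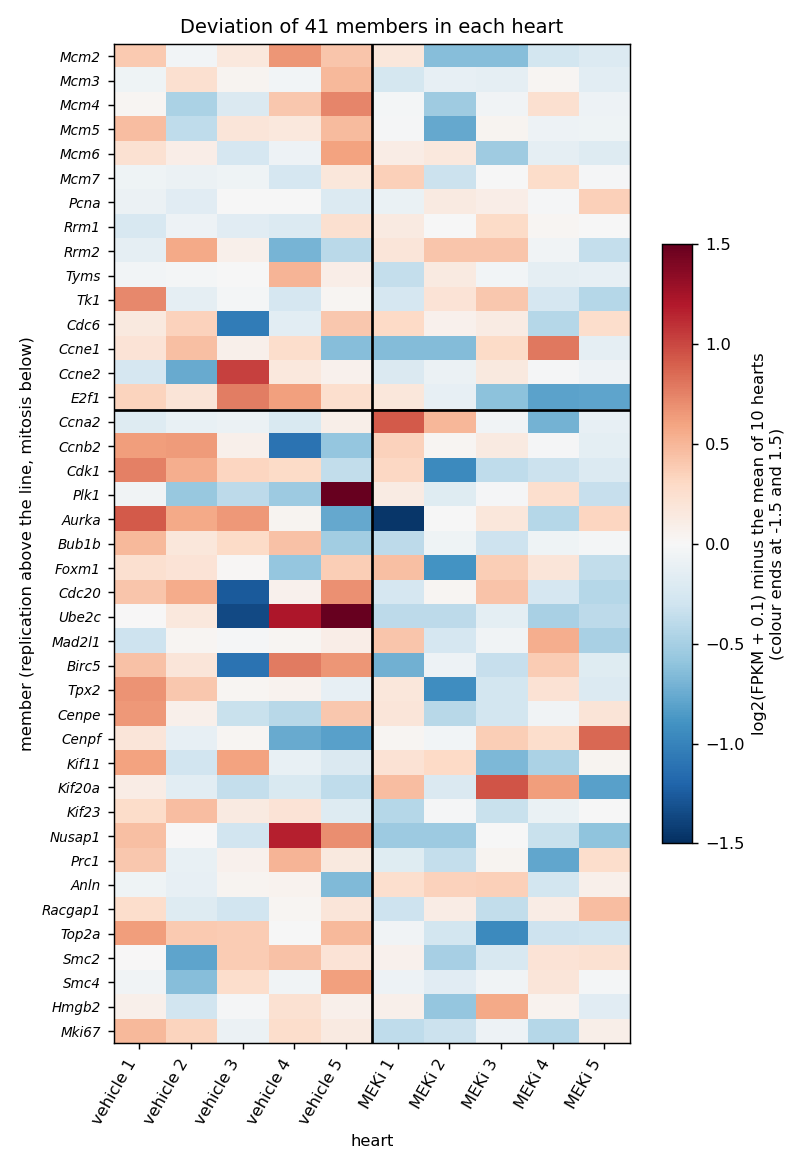
Deviation of log2(FPKM + 0.1) from the mean of 10 hearts (colour, which ends at -1.5 and 1.5) for the 41 tested members (rows) in each heart (columns); lines separate the groups and the 2 classes. Red fields gather in vehicle hearts 1, 4 and 5 for different members, and E2f1 and Top2a are blue in most MEKi hearts.

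Summed over the class, the 15 replication members had 25.8 ± 1.41 FPKM in vehicle and 25.9 ± 1.03 FPKM in MEKi hearts (SD, n = 5 each), a ratio of 1.00. Pcna made up much of that sum, and without it the sums were 14.5 ± 1.65 and 12.8 ± 0.929 FPKM, a ratio of 0.885. The 31 mitosis members had 16.8 ± 2.03 and 15.1 ± 1.72 FPKM, a ratio of 0.898. In fragments scaled to the library total, which weigh long genes such as Cenpf more, the ratio of the mitosis members was 1.04. The scaling differs as well, since the library size behind the FPKM was 0.925 to 1.06 times that total in single hearts. How much each difference adds was not tested. Without Cenpf the FPKM sums were 15.3 ± 2.26 and 12.8 ± 1.55. For the 27 mitosis members with a mean under 1 FPKM, a subset chosen after their values were seen, vehicle hearts 1 to 5 had 8.79, 7.28, 6.23, 8.27 and 9.22 FPKM. MEKi hearts 1 to 5 had 6.33, 5.17, 5.97, 6.09 and 5.81 FPKM for the same genes. MEKi heart 1 lay just above vehicle heart 3, and the other MEKi hearts lay below all vehicle hearts. The median log2 fold change was -0.14 for replication and -0.17 for mitosis members. The latter was -0.06 without vehicle heart 5.

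**Figure D4:**
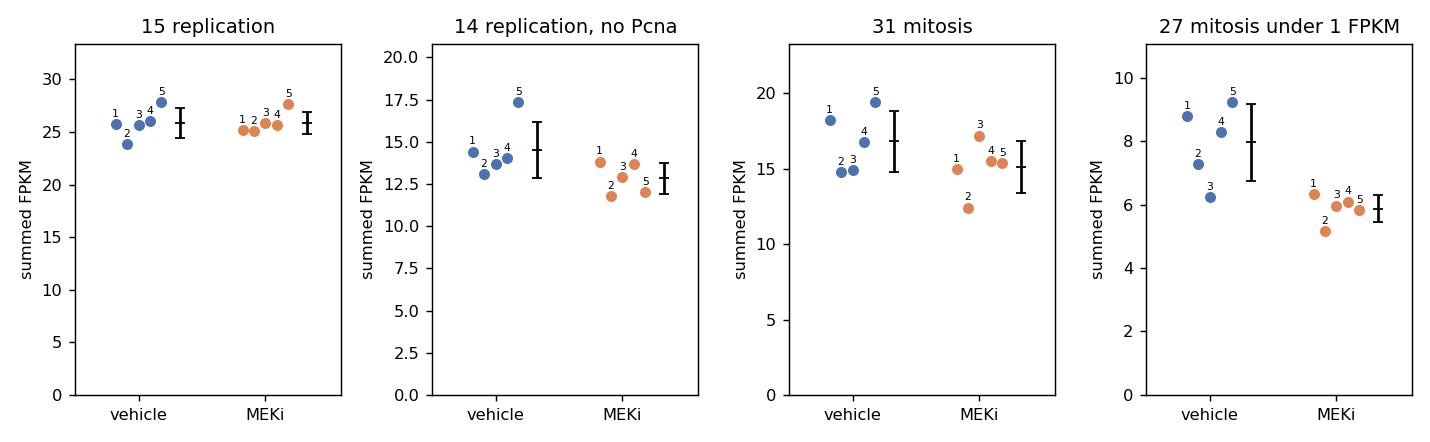
Summed FPKM per heart (vertical axes, from 0) of 15 replication members, of the same without Pcna, of 31 mitosis members and of the 27 of these with a mean under 1 FPKM; points are hearts labelled by number, black bars the mean with SD. The sums of replication members coincide, with means of 25.8 and 25.9 FPKM, and those of the low mitosis members are 7.96 in vehicle and 5.87 in MEKi hearts.

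Several members stood apart in vehicle hearts 4 and 5, the hearts rich in erythroid RNA. Both were also rich in atrial markers, with sums of 838 and 383 FPKM. The 2 traits cannot be told apart in these 2 hearts. MEKi heart 2 had an atrial sum of 680 FPKM with an erythroid sum of 4815 FPKM, within the range of the hearts not rich in erythroid RNA. A link of the members to either trait was not tested. Mcm2, Mcm4, Ube2c, Birc5 and Nusap1 were higher in both vehicle hearts 4 and 5 than in any of the other 8 hearts. Rrm2, Ccnb2 and Cenpf were lower in both. How many of all genes did so was not counted, so the pattern is not shown to be particular to the members. For Mcm2 the margin was small, with 1.21 FPKM in vehicle heart 5 and 1.18 FPKM in vehicle heart 1. Ube2c, the ubiquitin-conjugating enzyme of the anaphase-promoting complex, was the clearest case, with 0.709, 0.800, 0.216, 1.77 and 2.67 FPKM in vehicle hearts 1 to 5. MEKi hearts 1 to 5 had 0.516, 0.515, 0.628, 0.473 and 0.514 FPKM. Its log2 fold change was -0.72 (limma adjusted p = 0.748) with all hearts and 0.03 without vehicle hearts 4 and 5. The erythroid enzyme Alas2 had 5155 and 6178 fragments in these 2 hearts and 455 to 1020 in the others, and none of the 4 erythroid markers was at 0 in all hearts.

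Without vehicle hearts 4 and 5, an alternative chosen after the data were seen, 5 members had an unadjusted limma p under 0.05, all lower with MEKi: E2f1, Top2a, Cdk1, Aurka and Bub1b. In that fit 7.34% of all genes had such a p in either direction. E2f1 and Top2a then differed by -0.87 and -0.84 on the log2 scale, close to their values with all hearts. Cdk1 and Aurka differed by -0.85 and -0.99. Mcm2, Nusap1 and Mki67 no longer had an unadjusted p under 0.05, with -0.48, -0.46 and -0.47, nor had Cenpf, with 0.27. The same 5 members were found with MEKi heart 2 left out as well, where the share of all genes was 6.56%.

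**Figure D5:**
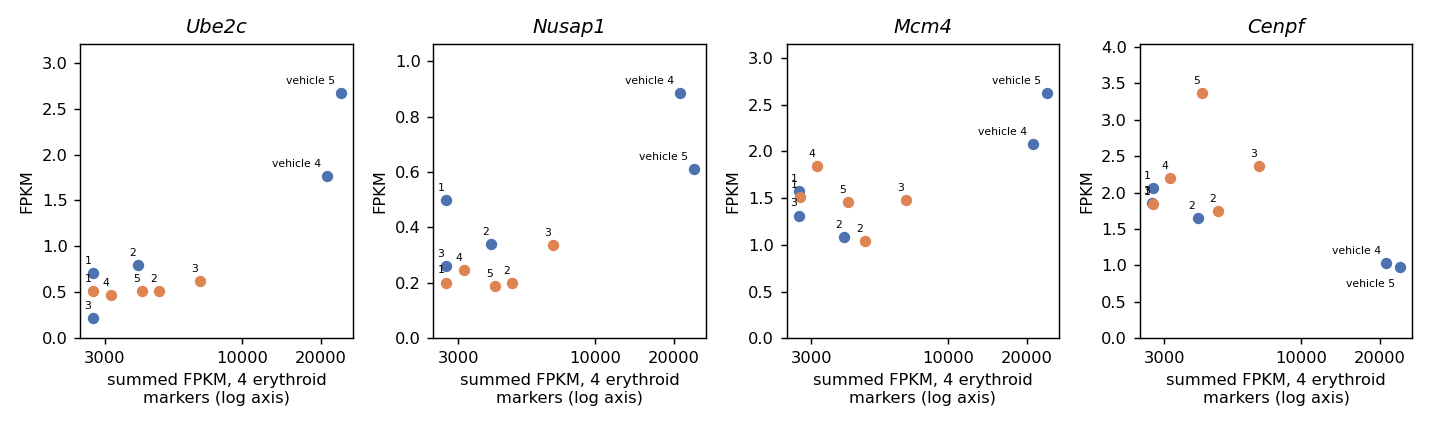
FPKM of Ube2c, Nusap1, Mcm4 and Cenpf (vertical axes, from 0) against the summed FPKM of 4 erythroid markers (horizontal log axis) in the vehicle (blue) and MEKi (orange) hearts, labelled by number. Vehicle hearts 4 and 5, at 21070 and 23825, are the highest 2 hearts for Ube2c, Nusap1 and Mcm4 and the lowest 2 for Cenpf.

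Markers of other cell types were read beside these values. All 5 macrophage markers had a fitted difference below 0, 2 of them at an unadjusted limma p under 0.05, with sums of 99.2 to 176 FPKM in vehicle and 95.6 to 115 FPKM in MEKi hearts. All 5 endothelial markers were likewise below 0, 1 of them at an unadjusted p under 0.05, with sums of 94.2 to 158 and 93.8 to 116 FPKM. The highest sum of both lists was that of vehicle heart 5. Of 5 fibroblast markers 2 were below 0, with 1 lower and 1 higher at an unadjusted p under 0.05 and sums of 141 to 223 and 152 to 202 FPKM. Lymphocyte markers summed to 0.544 to 4.64 FPKM in vehicle and 0.815 to 3.94 FPKM in MEKi hearts. Only 3 of these 5 were tested, 2 of them below 0. All 4 erythroid and all 4 atrial markers were below 0, against 1 of 5 cardiomyocyte and 1 of 3 adipocyte markers. Of all genes, 48.5% were below 0. At an unadjusted limma p under 0.05, 4.08% of all genes were lower and 3.61% higher. No marker of these lists passed an adjusted p of 0.05 and none was at 0 in all hearts. Their part in the values of the cell division genes was not tested.

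Other genes of the pathway were read from the same fit. Of 42 other replication genes, such as the origin recognition complex, GINS and the polymerases, 36 were tested and 0 passed the adjusted threshold by limma, and their median log2 fold change was -0.01. At an unadjusted p under 0.05 there were 3, or 8.33% of those tested, near the 7.7% of all genes. Uhrf1, which guides maintenance methylation at forks, had means of 0.421 ± 0.0525 and 0.262 ± 0.113 FPKM (SD, n = 5 each) and differed by -0.58 (limma adjusted p = 0.580). Its groups missed an overlap narrowly, with 0.370 FPKM in MEKi heart 1 and 0.371 FPKM in vehicle heart 5, from 27 and 23 fragments. It was the 1 gene of these 36 whose MEKi hearts lay wholly below the vehicle hearts, against 0.868% of all genes. Gins1 differed by 0.82 and Pola1, an X-linked polymerase gene, by 0.53. Of 42 other mitosis genes only 15 were tested and 0 passed, with 1 at an unadjusted p under 0.05 (6.67% of those tested), Cdca3, at -0.83 on the log2 scale (limma adjusted p = 0.521). Of 12 genes of the RB family and the DREAM complex, which hold the E2F and homology region promoters silent in resting cells, all 12 were tested and 0 passed, with 0 at an unadjusted p under 0.05.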

How the data were processed

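Poly(A)-selected RNA of 10 hearts was sequenced. The authors deposited FPKM per gene and heart together with gene length, and the submitters' processing notes name fastp, STAR 2.5, HTSeq 0.6.1 and mm10. Parameters, and whether strand was used, are not given in the sources used here. The labels set the groups. The product of FPKM and gene length was a whole multiple of 1 step per heart for 100% of values (tolerance 0.01), which gave the fragments. In R 4.3.3, limma 3.58.1 was run on log2(FPKM + 0.1) (trend, two-sided, Benjamini-Hochberg, threshold 0.05). Genes averaging 10 or more fragments a heart entered, a filter that keeps low genes. Since nothing says more of how the replicates were made, p-values measure the spread between these hearts. Single genes were also tested by two-sided exact permutation. The fit was tested on simulated data. The members and the gene lists were chosen with earlier results of these data known. Values are given for Mki67, for the most abundant and the extreme members of each role, for members with an unadjusted p under 0.05 or without overlap of the groups, and for further members as context. Alternatives were 2 filters, 2 pseudocounts, voom on fragments, a TPM scale, the replicate block, leaving out X, Y and mitochondrial genes, and leaving out hearts. Intervals for a count of 0 cover counting error only.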

Additional observations from a re-analysis of the deposited data

Results flagged for a closer look

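Among 96 groups of 5 hearts (46 members, and 2 sums, in each treatment group), 8 values stood apart from the other 4 hearts by Dixon's criterion, where chance gives about 4.8. In the vehicle group, Plk1 was high in heart 5 (1.156 FPKM, others 0.158 to 0.270), Tyms in heart 4 (0.5898, others 0.371 to 0.418), Tk1 in heart 1 (1.018, others 0.470 to 0.595) and Aurkb in heart 1 (0.2623, others 0.0235 to 0.0731), and Anln was low in heart 5 (0.05307, others 0.122 to 0.151). In the MEKi group, Mcm5 was low in heart 2 (0.4816 FPKM, others 0.840 to 0.921), and Aurkb (0.2311, others 0.0396 to 0.0949) and Ube2c (0.6285, others 0.473 to 0.516) were high in heart 3. Aurkb had 1 to 13 fragments a heart, so its values rest on few reads.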

How the results depend on the processing

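No member passed an adjusted p of 0.05 under any alternative run; the lowest was 0.277, for Nusap1 without vehicle heart 3. Of the 24 members named by rule, 15 kept the sign of their difference and 9 did not. The count of all genes past the threshold was 10, and 0 without X, Y and mitochondrial genes (1031 at an unadjusted p under 0.05), 5 with the replicate block, 6 without vehicle hearts 4 and 5, 6 when MEKi heart 2 was left out as well, and 5 to 14 when a heart was left out in turn. The replicate block left 5 members at an unadjusted p under 0.05, where 6.15% of all genes had one. Replicate numbers did not pair the hearts, since the deviations of same-numbered hearts correlated at -0.21 to -0.03. The median of the mitosis members, -0.17, was -0.043 for those with a mean of at least 0.5 FPKM, -0.30 by voom and -0.0441 without vehicle hearts 4 and 5 and MEKi heart 2. That of the replication members, -0.14, ranged from -0.2334 (without vehicle heart 2) to -0.0847 (without MEKi heart 1) when single hearts were left out, and was -0.07 with a pseudocount of 1 and -0.08 without vehicle hearts 4 and 5. The ratio of the replication sums was 0.885 without Pcna. A TPM scale moved the median of all genes from 0.01 to 0.08. Differences within the intervals were not detectable. Causes of these shifts were not tested, except that filters change which genes are tested.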
